A study of Mus musculus with 16 samples.

Results

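*Gnb4*, *Ppfia4*, *Hebp1*, *Madcam1* and *Scand1* are 5 of the 55385 genes counted in CD11b+ brain cells of mice with and without *Card9*. They were chosen by their symbols, because the study singled them out for a difference between *Card9*-/- and *Card9*+/+ animals. Deposited values of these same libraries therefore chose them: *Gnb4*, *Ppfia4*, *Madcam1* and *Scand1* on the comparison of *Card9*-/-5xFAD with 5xFAD, and *Ppfia4* and *Hebp1* on the comparison of *Card9*-/- with WT. *Hebp1* was also in view in the first of these. That some of the 5 genes were high in only part of a genotype's libraries was known as well. Values on those comparisons are given as a description, with no test. All 5 genes passed the filter on low counts, which kept 14513 genes. *Madcam1* passed it only through the 5xFAD libraries, where it was highest (18 to 62 counts, against 1 to 12 in the other genotypes).

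The study asked how loss of CARD9 changes the microglial response to amyloid. Bulk RNA-Seq was performed on CD11b+ cells held on magnetic beads from brains of female mice at 20 weeks of age, with the meninges and choroid plexus removed. The 4 genotypes were WT (*Card9*+/+, without the 5xFAD transgenes), *Card9*-/- (germline deletion, without the transgenes), 5xFAD (*Card9*+/+ with the transgenes) and *Card9*-/-5xFAD (both), with 4 libraries each and 16 in all, from crosses that included C57BL/6J mice. The 5xFAD transgenes carry familial Alzheimer's disease mutations and are driven in neurons by the Thy1 promoter, and the deletion is in all cells, so a difference in sorted cells need not begin in them. Nothing in the labels says whether a library came from 1 animal, so the spread between libraries may be partly technical.

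Libraries held from 2970148 to 19333325 counts on genes (median 7944265). Values are CPM, the count of a gene scaled to the library's total after edgeR's TMM correction between libraries. The libraries least correlated with the others of their group, by the mean Pearson r of log2 CPM, were *Card9*-/- replicate 4 (0.783), *Card9*-/-5xFAD replicate 4 (0.841) and WT replicate 1 (0.863), against 0.899 to 0.958 in the other libraries. *Card9*-/- replicate 4 and *Card9*-/-5xFAD replicate 4 also had the fewest counts. Summed over 8 microglial markers the level was 10810 to 32050 CPM across all libraries, with ranges that overlapped between genotypes. Over 5 neutrophil markers it was 409 to 5508 CPM, over 5 choroid plexus markers 3.06 to 2499 CPM and over 6 endothelial markers 32.6 to 122 CPM. In a bulk sample, fewer cells of a type and less RNA per cell cannot be told apart.

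*Card9*, the targeted gene, encodes an adaptor that relays signals from C-type lectin receptors to NF-kB. Its place is chromosome 2, bases 26352176 to 26360918, minus strand (mm10, as all positions here). Reads were counted on it in every library. WT libraries 1 to 4 had 77, 600, 392 and 367 counts, and the libraries labelled *Card9*-/- had 263, 842, 560 and 51. The 5xFAD libraries had 103, 238, 162 and 246 counts, and the libraries labelled *Card9*-/-5xFAD had 270, 295, 56 and 27. The genotypes overlapped: WT averaged 36.9 ± 16.3 CPM, *Card9*-/- 29.1 ± 8.37, 5xFAD 27.7 ± 8.29 and *Card9*-/-5xFAD 20.2 ± 11.8 CPM (SD, n = 4 each). Which exons the allele lacks is not given in the sources used here, and counts summed over the gene do not show whether the deleted part was read. The gene-level counts thus do not check the genotypes, and every direction below rests on the libraries as labelled. Whether labels of the WT and *Card9*-/- libraries were exchanged was not tested. A full exchange would turn the directions of *Card9*-/- against WT. It would swap the baselines of 5xFAD against WT and of *Card9*-/-5xFAD against *Card9*-/-.

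The 5 proteins have little in common. GNB4 is a beta subunit of heterotrimeric G proteins, which carry signals from cell surface receptors. PPFIA4 is liprin-alpha-4, one of the scaffold proteins that organise sites of vesicle release and bind LAR-type receptor phosphatases. HEBP1 binds heme, and a peptide cut from it attracts leukocytes through formyl peptide receptors. MADCAM1 is an addressin of venules in gut-associated tissue, bound by the integrin alpha4-beta7 on lymphocytes. SCAND1 is a small protein with a SCAN domain, through which zinc finger proteins pair.

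The genes lie on 5 chromosomes. *Gnb4* is on chromosome 3 (minus strand, 12692 exonic bases), *Ppfia4* on chromosome 1 (minus strand, 6572 exonic bases), and *Hebp1* on chromosome 6 from 135137522 to 135198022 (minus strand, 3711 exonic bases). *Madcam1* is on chromosome 10 from 79664559 to 79668537 (plus strand, 1436 exonic bases). *Scand1* is on chromosome 2 from 156311847 to 156312704 (minus strand, 759 exonic bases). *Scand1* is therefore on the chromosome of *Card9*, 130 megabases from it, and the other 4 genes are on other chromosomes. Of the stretches of 50 bases in *Ppfia4* and *Madcam1* transcripts, 0 occurred in transcripts of another gene, and for *Gnb4* and *Hebp1* the shares were 0.0933% and 0.299%. For *Scand1* the share was 29.7%, all of it in *Cnbd2*, which runs over it on the other strand.

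The start of *Madcam1* is shown because its promoter held a motif of the factor downstream of CARD9. The 250 bases before the start, chr10:79664309-79664558 (plus strand, RefSeq, GRCm38.p6), follow, with the matches to the NF-kB motif in capitals:

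Madcam1: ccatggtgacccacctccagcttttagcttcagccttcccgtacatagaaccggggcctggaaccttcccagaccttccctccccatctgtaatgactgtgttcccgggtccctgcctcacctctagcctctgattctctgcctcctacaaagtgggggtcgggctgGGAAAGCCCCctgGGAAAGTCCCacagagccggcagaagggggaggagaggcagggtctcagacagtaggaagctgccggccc

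The 2 matches began at bases -83 and -70 from the start. The motif was searched on both strands, and 7.25% of 32851 promoters of the same length held at least 1. The *Ppfia4*, *Hebp1* and *Scand1* promoters held 0 matches, and the table had no entry for *Gnb4*. For contrast, the 250 bases before the *Hebp1* start, chr6:135168216-135168465 (minus strand, RefSeq, GRCm38.p6), are these. This start lies inside the span given above, which comes from another annotation (GENCODE) and reaches further through 1 other transcript:

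Hebp1: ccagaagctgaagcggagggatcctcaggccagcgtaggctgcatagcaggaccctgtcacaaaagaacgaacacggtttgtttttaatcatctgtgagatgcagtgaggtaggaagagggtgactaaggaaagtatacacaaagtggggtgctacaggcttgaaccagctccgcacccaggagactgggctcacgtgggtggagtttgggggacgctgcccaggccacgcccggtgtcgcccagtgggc

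This window held 4 matches to the KLF core CACCC, which 52% of all promoters held, and 2 to the E-box CANNTG, which 66.2% held. The *Madcam1* window held 0 matches to CACCC and 1 to CANNTG. A match is a description of the letters and does not show that a factor binds.

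*Gnb4* was low in 13 of the 16 libraries, with 0 to 26 counts, and higher in the other 3, all of them *Card9*-/-5xFAD. WT libraries 1 to 4 had 1.94, 1.45, 0.772 and 1.07 CPM. *Card9*-/- libraries had 1.20, 1.08, 1.24 and 0 CPM. The last of these had 0 counts, which allows a level of up to 0.981 CPM (3 counts, counting error only). 5xFAD libraries had 0.455, 0.411, 0.899 and 0.409 CPM, from 3 to 5 counts each. *Card9*-/-5xFAD libraries had 22.6, 17.5, 0.695 and 16.4 CPM, from 229, 153, 4 and 41 counts. Replicate 3 of that genotype was within the 5xFAD range, and the other 3 libraries were 18.3 to 25.1 times the highest 5xFAD library. Replicate 4, with the fewest counts of all libraries, was among the high ones.

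*Ppfia4* fell into low and high libraries within both *Card9*-deficient genotypes. WT libraries had 8.45, 9.67, 8.27 and 9.63 CPM, a narrow range. *Card9*-/- libraries had 9.85, 205, 226 and 11.8 CPM. Replicates 2 and 3 were thus 21.2 and 23.4 times the highest WT library, and replicates 1 and 4 were 1.02 and 1.22 times that library. 5xFAD libraries had 40.5, 31.5, 30.8 and 36.2 CPM, all above WT. *Card9*-/-5xFAD libraries had 353, 307, 31.6 and 213 CPM. Replicates 1, 2 and 4 were 5.27 to 8.71 times the highest 5xFAD library, and replicate 3 was inside the 5xFAD range. The mean hid this split: *Card9*-/- averaged 113 ± 119 CPM and *Card9*-/-5xFAD 226 ± 142 CPM, where WT averaged 9.01 ± 0.747 and 5xFAD 34.7 ± 4.53 CPM (SD, n = 4 each).

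*Hebp1* was lower in all 8 *Card9*-deficient libraries than in every library of the matching *Card9*-intact genotype. WT libraries had 26.9, 61.1, 69.7 and 48.5 CPM, and *Card9*-/- libraries had 4.80, 5.54, 6.46 and 15.1 CPM. The highest of the latter, replicate 4, is the library that stood apart from its group. 5xFAD libraries had 61.1, 88.8, 82.9 and 80.0 CPM, and *Card9*-/-5xFAD libraries had 8.09, 11.1, 43.6 and 16.02 CPM. Replicate 3 was again the library closest to 5xFAD, at 0.714 times the lowest 5xFAD library, where the other 3 were at 0.132 to 0.262 times. The summed level of 8 T or NK cell markers was 52.7 to 380 CPM in WT and 48.8 to 64.8 CPM in *Card9*-/-. It was 38.7 to 200 CPM in 5xFAD and 28.6 to 61.7 CPM in *Card9*-/-5xFAD. Within WT and within 5xFAD, replicate 1 had the highest of these sums and the lowest *Hebp1* level (26.9 and 61.1 CPM). Within *Card9*-/-, replicate 4 was the highest in both. Each of these libraries also had the highest neutrophil and choroid plexus sums of its genotype. Within *Card9*-/-5xFAD, replicate 4 had the highest T or NK sum (61.7 CPM), and *Hebp1* was lowest in replicate 1 and highest in replicate 3. The part of T or NK cells or of other cells in the *Hebp1* values was not tested.

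*Madcam1* was highest in the 4 5xFAD libraries, and the *Card9*-/-5xFAD libraries lay close together and within the WT range. WT libraries had 0.352, 0.257, 1.32 and 0.535 CPM, and *Card9*-/- libraries had 0.120, 0.290, 0.533 and 0.654 CPM. These levels rest on 1 to 12 counts each. 5xFAD libraries had 7.89, 8.50, 7.19 and 2.45 CPM from 52, 62, 40 and 18 counts, and replicate 4 was the low one. *Card9*-/-5xFAD libraries had 0.987, 0.913, 1.22 and 1.20 CPM from 10, 8, 7 and 3 counts. All 4 were below the lowest 5xFAD library. The ranges of the summed endothelial markers overlapped between 5xFAD (38.0 to 61.6 CPM) and *Card9*-/-5xFAD (34.2 to 65.7 CPM), and none of the 6 markers was at 0 in a whole genotype.

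*Scand1* was lower in all 4 *Card9*-/-5xFAD libraries than in every 5xFAD library, and its highest *Card9*-/-5xFAD library was 1.43 times the lowest (*Madcam1* 1.33 times, *Gnb4* 32.5 times). WT libraries had 69.5, 22.7, 23.6 and 17.8 CPM, with replicate 1 far above the others. *Card9*-/- libraries had 18.6, 11.5, 9.66 and 32.4 CPM, with replicate 4 the highest. 5xFAD libraries had 69.5, 44.1, 41.7 and 33.6 CPM, and *Card9*-/-5xFAD libraries had 14.4, 20.5, 19.3 and 15.6 CPM. Replicate 3 of *Card9*-/-5xFAD lay among the others here, as it did for *Madcam1*.

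**Figure D1:**
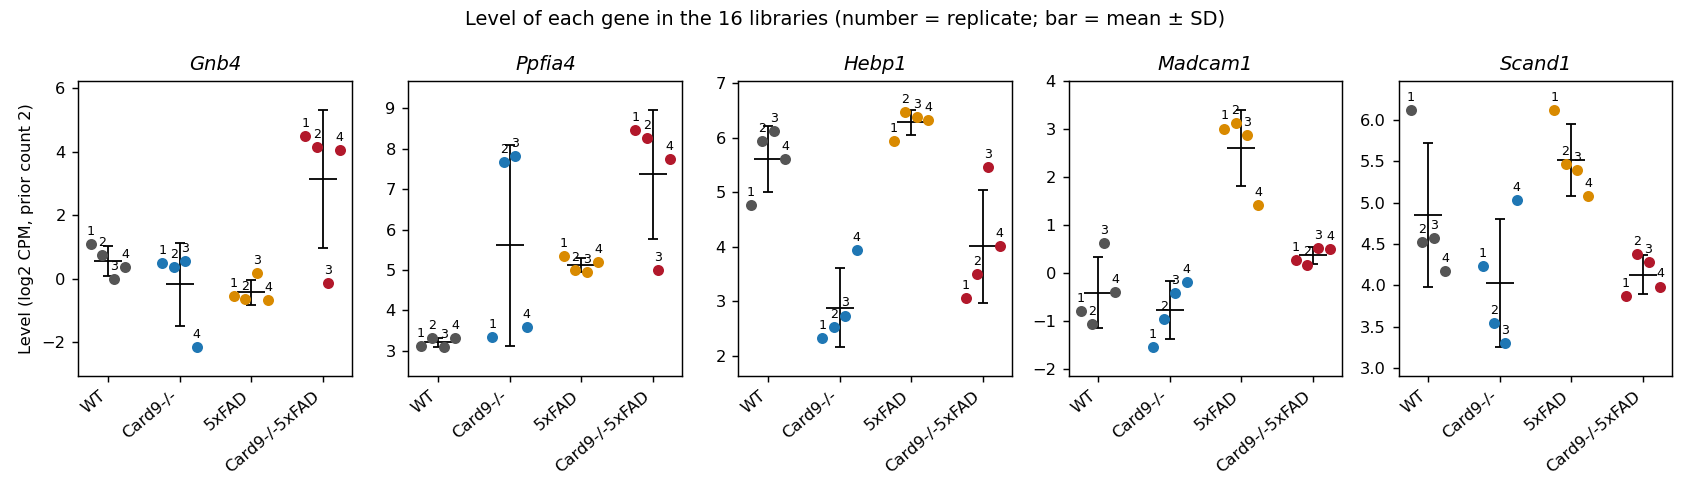
Level of each gene (log2 CPM, prior count 2) in the 4 genotypes; each point is a library with its replicate number, and the bar is the mean ± SD of 4 libraries. *Gnb4* was high in 3 *Card9*-/-5xFAD libraries, *Ppfia4* in 2 *Card9*-/- and 3 *Card9*-/-5xFAD libraries, and *Card9*-/-5xFAD replicate 3 lay with 5xFAD for both.

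The size of the split within a genotype was set beside that of all genes. These genes were chosen with the differences between their libraries known, so the shares of all genes are a description and no reference. On the log2 CPM scale the largest step between neighbouring libraries was 4.18 for *Gnb4* in *Card9*-/-5xFAD, and 14 of 14513 genes (0.0965%) had a step as large in that genotype. It was 2.75 for *Ppfia4* there (209 genes, 1.44%) and 4.09 for *Ppfia4* in *Card9*-/- (229 genes, 1.58%). The median step over all genes was 0.89 in *Card9*-/-5xFAD and 0.81 in *Card9*-/-. For *Hebp1*, *Madcam1* and *Scand1* in *Card9*-/-5xFAD the steps were 1.43, 0.24 and 0.30. On this scale *Madcam1* and *Scand1* thus varied less between these libraries than the typical gene, and *Hebp1* more. For *Madcam1* this rests on 3 to 10 counts a library, where the prior count draws log2 CPM values together.

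Library by library, the genes did not move as 1 set. Against the range of the matching *Card9*-intact genotype, *Hebp1* was below in 4 of 4 *Card9*-/- and 4 of 4 *Card9*-/-5xFAD libraries. *Ppfia4* was above in 4 of 4 and 3 of 4, and *Gnb4* in 0 of 4 and 3 of 4. *Madcam1* was below in 1 of 4 and 4 of 4, and *Scand1* in 2 of 4 and 4 of 4. Over all genes tested, 11.1% to 35.0% were above and 15.0% to 27.2% below that range in a given library. Among *Card9*-/-5xFAD libraries replicate 3 had 11.1% above and 15.2% below, against 25.2% to 35.0% and 24.8% to 27.2% in the others. In *Card9*-/-5xFAD the same 3 libraries were high in *Gnb4* and in *Ppfia4*. In *Card9*-/- the high *Ppfia4* libraries, replicates 2 and 3, had 1.08 and 1.24 CPM of *Gnb4*, no higher than replicate 1. A high *Ppfia4* level was accordingly found with and without a high *Gnb4* level, while the reverse was not seen among these 16 libraries. *Hebp1* was low in *Card9*-/- replicate 1, where *Ppfia4* was near the WT level.

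**Figure D2:**
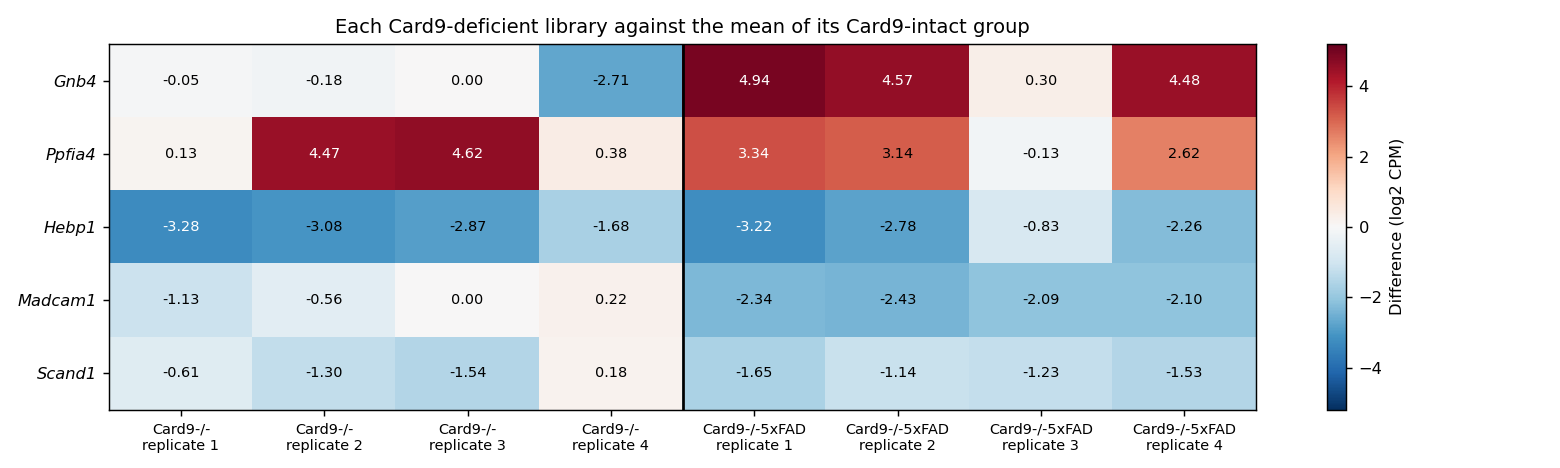
Difference in log2 CPM between each *Card9*-deficient library and the mean of its *Card9*-intact genotype (WT on the left, 5xFAD on the right), with red for higher and blue for lower. *Card9*-/-5xFAD replicate 3 had differences of 0.30 for *Gnb4* and -0.13 for *Ppfia4* but -2.09 for *Madcam1* and -1.23 for *Scand1*.

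**Figure D3:**
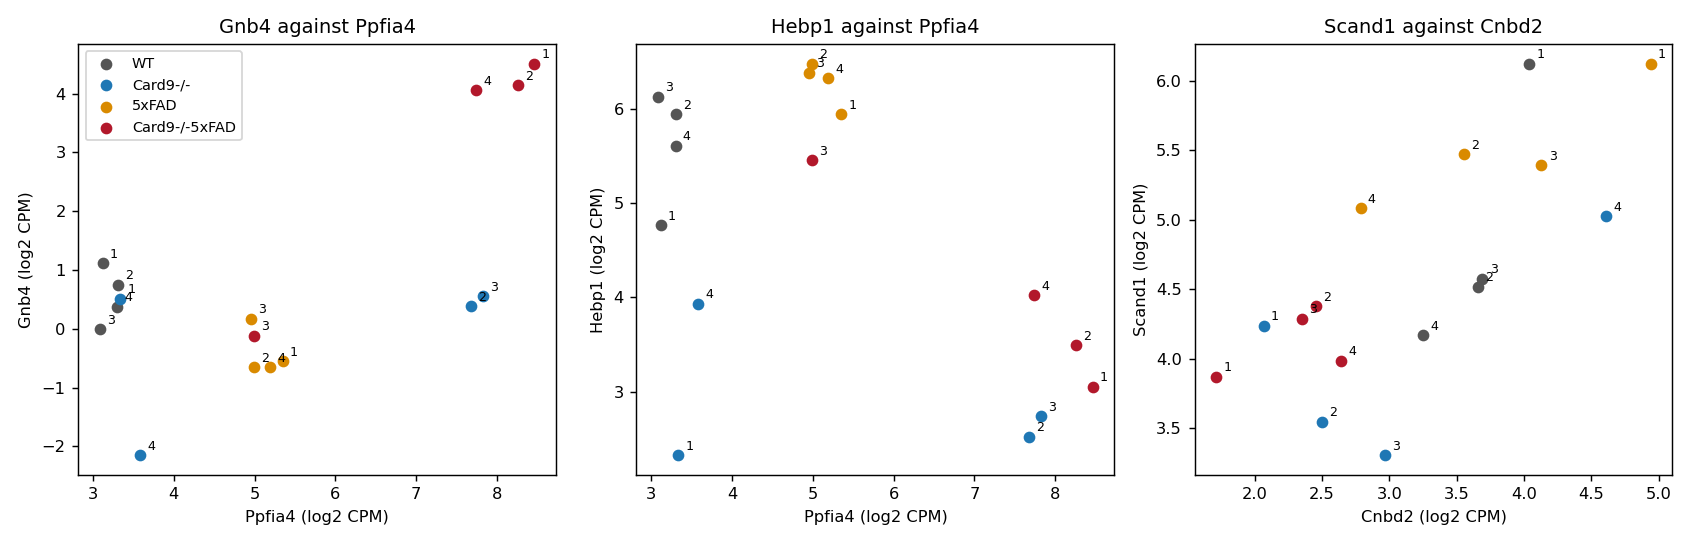
Levels (log2 CPM) of pairs of genes, with 1 point per library, coloured by genotype and numbered by replicate. High *Gnb4* occurred only in libraries with high *Ppfia4*; *Hebp1* was low in *Card9*-/- replicate 1, where *Ppfia4* was low too; the panel at the right sets *Scand1* against *Cnbd2*, which overlaps it.

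Per kilobase of exon, the order of the genes changed with genotype. In WT the levels were 44.0 ± 31.9 CPM per kilobase (SD, n = 4) for *Scand1*, 13.9 ± 5.01 for *Hebp1*, 1.37 ± 0.114 for *Ppfia4*, 0.430 ± 0.338 for *Madcam1* and 0.103 ± 0.0397 for *Gnb4*. In *Card9*-/-5xFAD they were 34.4 ± 21.6 for *Ppfia4*, 23.0 ± 3.84 for *Scand1*, 5.31 ± 4.39 for *Hebp1*, 1.13 ± 0.745 for *Gnb4* and 0.752 ± 0.106 for *Madcam1*. *Ppfia4* was thus above *Scand1* by mean in *Card9*-/-5xFAD and far below it in WT, and in *Card9*-/-5xFAD replicate 3 it was at 4.81 and *Scand1* at 25.4.

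Comparing *Card9*-/-5xFAD with 5xFAD, the log2 fold change was 4.71 (SE 0.84) for *Gnb4*, 2.70 (SE 0.85) for *Ppfia4*, -1.99 (SE 0.50) for *Hebp1*, -2.60 (SE 0.56) for *Madcam1* and -1.43 (SE 0.45) for *Scand1*. This comparison chose the genes. With edgeR's quasi-likelihood test, 0 of 14513 genes (0%) passed a false discovery rate (FDR) of 0.1, 366 (2.52%) had an unadjusted p under 0.05, and DESeq2 on all libraries called 2. For *Hebp1*, *Madcam1* and *Scand1* every *Card9*-/-5xFAD library was below every 5xFAD library, as for 0.923% of all genes. For *Gnb4* and *Ppfia4* they overlapped through *Card9*-/-5xFAD replicate 3; 0.972% of all genes were higher without overlap. Without *Card9*-/-5xFAD replicate 3 the log2 fold change was 5.10 for *Gnb4*, 3.06 for *Ppfia4* and -2.77 for *Hebp1*.

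Comparing *Card9*-/- with WT, the genes chosen on it had log2 fold changes of 3.65 (SE 0.89, *Ppfia4*) and -2.74 (SE 0.51, *Hebp1*). Ranges did not overlap for either, as for 1.06% of all genes that were higher and 1.6% that were lower; for *Ppfia4* the gap between 9.85 and 9.67 CPM was small. Here too 0 genes (0%) passed FDR 0.1 with edgeR, 597 (4.11%) had an unadjusted p under 0.05, and DESeq2 on all libraries called 5.

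*Gnb4*, *Madcam1* and *Scand1* were not chosen on the comparison of *Card9*-/- with WT, so it can be tested for them, and none passed. The study's own list for this comparison, from the same libraries with DESeq2, did not name them, so this outcome was partly known beforehand. *Gnb4* had a log2 fold change of -0.41 (SE 0.75, edgeR adjusted p = 0.971; exact two-sided permutation test over 70 assignments, p = 0.400). *Madcam1* had -0.72 (SE 0.60, edgeR adjusted p = 0.970; exact permutation p = 0.514). *Scand1* had -0.91 (SE 0.45, edgeR adjusted p = 0.970; exact permutation p = 0.229). Adjusted over these 3 tests the permutation p was 0.514 for each, and the smallest p that 4 against 4 libraries allow is 0.0286. The SE leaves room for changes in either direction for *Gnb4* and *Madcam1*, and for *Scand1* it leaves room for no change. Single libraries moved the values: *Scand1* had -0.28 without WT replicate 1 and -1.33 without *Card9*-/- replicate 4, *Madcam1* had -0.03 without WT replicate 3, and *Gnb4* had -0.14 without *Card9*-/- replicate 4.

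The transgene comparisons share libraries with those that chose the genes, so they are described without a test. From WT to 5xFAD the log2 fold change was 3.36 (SE 0.57) for *Madcam1*, 1.95 (SE 0.83) for *Ppfia4*, 0.60 (SE 0.48) for *Hebp1*, 0.50 (SE 0.44) for *Scand1* and -1.25 (SE 0.81) for *Gnb4*. *Madcam1* and *Ppfia4* were higher in every 5xFAD library than in every WT library, as were 4.35% of all genes. That share is no reference for *Madcam1*, which passed the low-count filter through its 5xFAD libraries. Without WT replicate 1 the value for *Scand1* was 1.14 and for *Hebp1* 0.39, and without WT replicate 3 the value for *Madcam1* was 4.05. Without 5xFAD replicate 1 *Scand1* had 0.27. From *Card9*-/- to *Card9*-/-5xFAD it was 3.86 (SE 0.78) for *Gnb4*, 1.48 (SE 0.61) for *Madcam1*, 1.35 (SE 0.50) for *Hebp1*, 0.99 (SE 0.80) for *Ppfia4* and -0.02 (SE 0.45) for *Scand1*. *Madcam1* was higher without overlap there too, as were 3.53% of all genes. Without *Card9*-/-5xFAD replicate 3 the value for *Hebp1* was 0.58. Leaving out *Card9*-/- replicate 3 gave 1.57 for *Ppfia4*, leaving out *Card9*-/- replicate 1 gave 0.60, and leaving out *Card9*-/- replicate 4 turned *Scand1* to 0.40.

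The order of the genotypes by mean differed between the genes. For *Ppfia4* it was WT, 5xFAD, *Card9*-/- and *Card9*-/-5xFAD; WT and 5xFAD did not overlap, and each *Card9*-deficient genotype spanned from near the level of its *Card9*-intact one to well above it. For *Hebp1* the order was *Card9*-/-, *Card9*-/-5xFAD, WT and 5xFAD. Its neighbours in this order overlapped: *Card9*-/- at 7.96 ± 4.77 and *Card9*-/-5xFAD at 19.7 ± 16.3 CPM (SD, n = 4 each), and WT at 51.6 ± 18.6 and 5xFAD at 78.2 ± 11.97 CPM (SD, n = 4 each). *Card9*-/-5xFAD and WT overlapped as well, through *Card9*-/-5xFAD replicate 3 (43.6 CPM) and WT replicate 1 (26.9 CPM). For *Madcam1* it was *Card9*-/- (0.399 ± 0.240), WT (0.617 ± 0.485), *Card9*-/-5xFAD (1.08 ± 0.153) and 5xFAD (6.51 ± 2.76 CPM; SD, n = 4 each), and 5xFAD alone did not overlap any other. For *Scand1* it was *Card9*-/-5xFAD, *Card9*-/-, WT and 5xFAD, from 17.5 ± 2.92 to 47.2 ± 15.5 CPM (SD, n = 4 each).

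Genes near each member were examined on the *Card9* comparisons. Within 1000000 bases of the 5 genes 128 others were tested, and 10 of them had an unadjusted p under 0.05 in *Card9*-/-5xFAD against 5xFAD (7.81%, against 2.52% of all genes) and 7 in *Card9*-/- against WT (5.47%, against 4.11%). Neighbours of 1 gene are not independent of each other, and the difference between these shares was not tested. In neither did any of these pass FDR 0.1. The median log2 fold change of the neighbours was 0.18 in both, against 0.14 and 0.11 over all genes tested.

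*Klhl12*, a substrate adaptor of a ubiquitin ligase, lies 122.6 kilobases from *Ppfia4* and followed it library by library. *Card9*-/- libraries had 3.24, 9.43, 8.83 and 3.27 CPM of *Klhl12*, and *Card9*-/-5xFAD libraries had 10.4, 7.87, 2.43 and 7.21 CPM. The libraries high in *Ppfia4* were the 5 high in *Klhl12*, and the other *Card9*-deficient libraries lay within 2.43 to 3.27 CPM, where WT had 2.40 to 3.96 CPM and 5xFAD 1.26 to 3.03 CPM. The log2 fold change of *Klhl12* was 1.73 (SE 0.49, edgeR adjusted p = 0.993) in *Card9*-/-5xFAD against 5xFAD and 1.08 (SE 0.48, edgeR adjusted p = 0.970) in *Card9*-/- against WT. *Btg2*, an antiproliferative early response gene 217.7 kilobases from *Ppfia4*, was higher in every *Card9*-/-5xFAD than in every 5xFAD library (2016 ± 655 against 788 ± 383 CPM; SD, n = 4 each; edgeR adjusted p = 0.993). The 4 *Card9*-/-5xFAD libraries had 1659, 1977, 1480 and 2950 CPM of *Btg2*, lowest in replicate 3, which was also low in *Ppfia4*. Over all genes that replicate also had the smallest share above the 5xFAD range (11.1%, against 25.2% to 35.0% in the others). The part of this in the likeness of *Klhl12* and *Btg2* to *Ppfia4* was not tested. *Btg2* is among 16 early response and heat shock genes whose summed level was 2850 to 10560 CPM in 5xFAD and 7191 to 13430 CPM in *Card9*-/-5xFAD, and their part in its difference was not tested.

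*Zmat3*, a p53 target that binds RNA, lies 214.3 kilobases from *Gnb4*. It had 8.09, 6.28, 3.65 and 8.41 CPM in *Card9*-/-5xFAD, lowest in the replicate that was low in *Gnb4*, and 2.88 to 3.64 CPM in 5xFAD (log2 fold change 1.04, SE 0.33, edgeR adjusted p = 0.993). That replicate also lay nearest to 5xFAD over all genes, as given above, and the part of this in the *Zmat3* values was not tested. *Tpgs1*, a subunit of the tubulin polyglutamylase complex, starts 0.8 kilobases from the end of *Madcam1*. It had log2 fold changes of -0.74 (SE 0.28, edgeR adjusted p = 0.993) with the transgenes and -0.65 (SE 0.28, edgeR adjusted p = 0.970) without them. Its 5xFAD libraries had 175, 126, 129 and 82.9 CPM, with replicate 4 the lowest, as for *Madcam1*. That library was also the lowest of 5xFAD for genes on other chromosomes, such as *Lgals3* (163 CPM) and *Rala* (119 CPM). Of the 14 genes tested near *Hebp1*, 0 had an unadjusted p under 0.05 in either comparison.

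**Figure D4:**
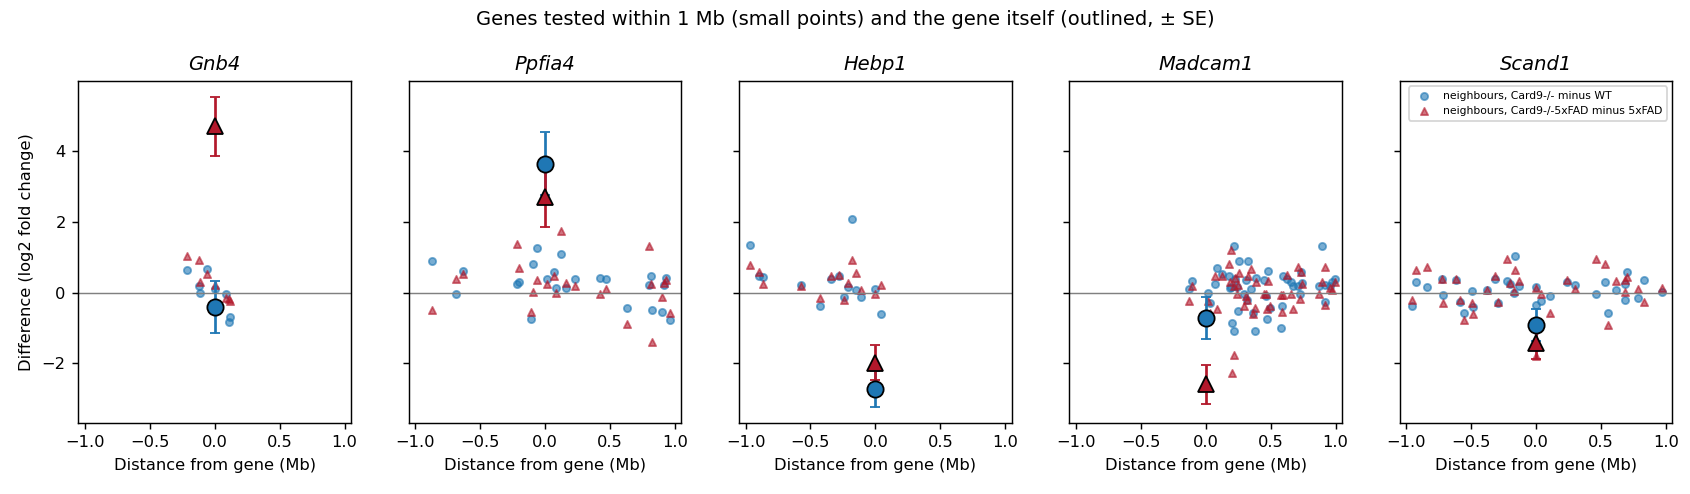
Difference (log2 fold change) of the genes tested within 1 Mb of each member (small points) against their distance from it, for *Card9*-/- minus WT (circles) and *Card9*-/-5xFAD minus 5xFAD (triangles); outlined symbols are the member with its SE. *Ppfia4* and *Hebp1* lay beyond every neighbour in the direction of their own difference in both comparisons, *Gnb4* and *Madcam1* did so with the transgenes only, and *Scand1* did so without them only.

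Genes that overlap a member were set beside it, since the strand setting of the counting is not given in the sources used here and reads of overlapping genes then cannot be told apart. *Cnbd2*, which encodes a cyclic nucleotide binding domain protein, shares 307 of the 759 exonic bases of *Scand1*. It had 30.5, 11.5, 17.3 and 6.67 CPM in 5xFAD and 3.06, 5.25, 4.87 and 6.01 CPM in *Card9*-/-5xFAD (log2 fold change -1.80, SE 0.55, edgeR adjusted p = 0.993). WT libraries had 16.2, 12.4, 12.7 and 9.31 CPM of it and *Card9*-/- libraries 3.96, 5.42, 7.59 and 24.2 CPM. WT replicate 1, 5xFAD replicate 1 and *Card9*-/- replicate 4 were thus the highest of their genotype in both genes. Each also had the lowest summed microglial markers of its genotype (11180, 11640 and 13680 CPM) and the highest choroid plexus and neutrophil sums. *Card9*-/-5xFAD replicate 4 had the lowest microglial sum of its genotype too (10810 CPM), and there *Cnbd2* was highest but *Scand1* was not. The parts of cell mixture and of shared reads in this likeness were not tested. *Fam234b* shares 46 exonic bases with *Hebp1* and had 41.9 ± 14.5 CPM in *Card9*-/- and 38.8 ± 15.8 CPM in WT (SD, n = 4 each). The antisense gene *Gm37640* within *Gnb4* had at most 1 count in any library.

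The genes whose log2 CPM followed each member most closely over the 16 libraries are given as a description. For *Gnb4* they were *Ipo4* (Pearson r = 0.769), *Xlr4c* (0.739), *Rbm45* (0.728), *Kctd9* (0.720) and *Chm* (0.708). None matched its contrast in level: *Ipo4*, a nuclear import receptor, had 19.1 ± 3.79 CPM in *Card9*-/-5xFAD and 12.8 ± 2.21 CPM in 5xFAD (SD, n = 4 each). For *Ppfia4* they were *Iqgap3* (0.803), *Mfap3l* (0.801), *Brip1* (0.775), *Klhl12* (0.759) and *Ttyh2* (0.755). *Klhl12* was the only gene of the 5 lists on the chromosome of its member. For *Hebp1* they were *Mrps6* (0.847), *Il2rg* (0.818), *Cfap298* (0.808), *Mrps26* (0.796) and *Ndufaf5* (0.790). *Il2rg*, the shared chain of several interleukin receptors, had 23.0 ± 4.10 CPM in WT and 13.3 ± 5.35 CPM in *Card9*-/- (SD, n = 4 each).

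For *Madcam1* the closest genes were *Ube2t* (0.902), *Il18bp* (0.899), *Lgals3* (0.884), *Ydjc* (0.877) and *Slamf9* (0.864). *Lgals3*, a galectin of activated microglia, had 245 ± 74.5 CPM in 5xFAD, 119 ± 52.4 CPM in *Card9*-/-5xFAD and 88.5 ± 16.2 CPM in WT (SD, n = 4 each). For *Scand1* they were *Rala* (0.912), *Rp9* (0.907), *Fam104a* (0.896), *Mtdh* (0.886) and *Cryab* (0.871). *Rala*, a small GTPase, had 161 ± 57.5 CPM in WT and 88.9 ± 17.5 CPM in *Card9*-/- (SD, n = 4 each). The points share libraries and depth, and the split or outlying libraries weigh most in each r. Ranked by Spearman's rho, 1 of the 5 genes stayed among the 5 closest for *Gnb4* and 2 of 5 for each other member.

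The other members of each gene family and pathway were counted on the 4 comparisons at FDR 0.1 (edgeR). On both *Card9* comparisons 0 of these passed. From WT to 5xFAD 1.57% of all genes passed as higher and 0.524% as lower, and from *Card9*-/- to *Card9*-/-5xFAD 1.49% and 0.482%.

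Of 31 other G protein subunits 20 were tested, and 1 rose with the transgenes in each *Card9* state. It was *Gng12*, a gamma subunit, with log2 fold changes of 1.34 (SE 0.25, adjusted p = 0.0108) and 1.47 (SE 0.25, adjusted p = 0.00532). *Gng12* had 248 ± 47.6 CPM in 5xFAD and 226 ± 22.5 CPM in *Card9*-/-5xFAD (SD, n = 4 each), without a split by library. The beta subunits *Gnb1* (238 ± 114 CPM) and *Gnb2* (50.7 ± 18.4 CPM) were the more abundant ones in *Card9*-/-5xFAD, where *Gnb4* had 14.3 ± 9.46 CPM (SD, n = 4 each).

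Of 20 other liprins and their partners 10 were tested, and *Kif1a*, a kinesin that carries synaptic vesicle precursors, rose by 2.67 (SE 0.48, adjusted p = 0.00737) from WT to 5xFAD and by 1.87 (SE 0.48, adjusted p = 0.0787) from *Card9*-/- to *Card9*-/-5xFAD on the log2 scale. *Ppfia1*, the liprin-alpha gene of most tissues, had 19.9 ± 8.93 CPM in WT and 25.7 ± 10.4 CPM in *Card9*-/- (SD, n = 4 each). Its *Card9*-/- replicates 2 and 3, the libraries high in *Ppfia4*, had 32.9 and 11.3 CPM. *Ppfia2* and *Ppfia3* stayed at or under 0.981 and 3.27 CPM in every library.

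Of 20 other genes of heme binding, synthesis and breakdown 17 were tested, and *Hebp2*, the paralog of *Hebp1*, was the 1 that passed. It rose by 1.85 on the log2 scale (SE 0.47, adjusted p = 0.0770) from *Card9*-/- to *Card9*-/-5xFAD, and its value from WT to 5xFAD was 0.97 (SE 0.43, adjusted p = 0.425). In *Card9*-/- against WT it had -1.39 (SE 0.47, adjusted p = 0.970), at 0.653 ± 0.449 against 1.497 ± 0.483 CPM (SD, n = 4 each) from 4 to 22 counts a library. *Fpr2*, a formyl peptide receptor, had -1.59 (SE 0.56, adjusted p = 0.970) there.

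Of 12 other addressins, selectin ligands and their integrins 11 were tested, and 1 subunit of the MADCAM1 receptor passed in each transgene comparison. *Itga4* fell by 1.48 on the log2 scale (SE 0.37, adjusted p = 0.0604) from WT to 5xFAD, where *Itgb7* had -1.39 (SE 0.42, adjusted p = 0.159). *Itgb7* fell by 1.72 (SE 0.42, adjusted p = 0.0643) from *Card9*-/- to *Card9*-/-5xFAD, where *Itga4* had -1.30 (SE 0.37, adjusted p = 0.118). The median log2 fold change of the list was -0.39 and -0.78, against -0.15 over all genes in both. Of 28 other SCAN domain genes 22 were tested, and 0 passed in any of the 4 comparisons, with 4 at an unadjusted p under 0.05 from WT to 5xFAD, where 10.8% of all genes had one.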

How the data were processed

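RNA was sequenced from CD11b-sorted brain cells in 16 libraries. The authors aligned reads with HISAT2 to mm10, filtered with SAMtools and counted with HTSeq; the deposited values are raw counts per gene symbol. Versions of these tools and the strand setting are not given in the sources used here. From the deposited counts, edgeR 4.0.16 quasi-likelihood models were fitted to all 4 genotypes (TMM, filterByExpr minimum count 10, Benjamini-Hochberg, FDR 0.1), with DESeq2 1.42.0 among the alternatives. The model was tested on simulated data for *Card9*-/- against WT. At FDR 0.1 it called 6% of genes given a log2 fold change of 1, 68% at 2, 90% at 3 and 58% at -2. It also called 10 of 14003 unchanged genes. The changed genes were drawn only from those above a minimum mean count. These shares may therefore be too high for genes with few counts in this comparison, such as *Gnb4* and *Madcam1*. A gene that did not pass can therefore still have changed, most of all by a small amount. Log2 CPM used a prior count of 2. The members, lists and neighbour windows were chosen with earlier results of these data known. Genes named besides the members were the 5 closest by Pearson r, list genes past FDR 0.1 or of a member's family, and neighbours within 1000000 bases with an unadjusted p under 0.05, of which examples are given, or overlapping a member. Positions and exon lengths are from GENCODE vM21. In a chi-square test of counts over genes, each of the 24 pairs of libraries of 1 genotype differed by more than sampling noise (statistic over its degrees of freedom at least 6.92).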

Additional observations from a re-analysis of the deposited data

Results flagged for a closer look

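Within each genotype the highest and lowest library of each gene were compared with the others on the log2 CPM scale by Dixon's ratio. Of 20 sets of libraries 4 passed. Chance passes about 1 in 20, but these genes were chosen with the differences between their libraries known, so that rate is no reference and the 4 are given as a description. *Gnb4* had 0 CPM in *Card9*-/- replicate 4, against 1.08 to 1.24 CPM in the other libraries of that genotype; the depth of that library allows up to 0.981 CPM at 0 counts. *Gnb4* had 0.695 CPM in *Card9*-/-5xFAD replicate 3, against 16.4 to 22.6 CPM in the others. *Gnb4* had 0.899 CPM in 5xFAD replicate 3, against 0.409 to 0.455 CPM in the others, a difference of 5 against 3 counts. *Madcam1* had 2.45 CPM in 5xFAD replicate 4, against 7.19 to 8.50 CPM in the others. The *Ppfia4* split of 2 and 2 libraries in *Card9*-/- cannot pass this ratio.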

How the results depend on the processing

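The number of genes called at FDR 0.1 depended on the tool. In *Card9*-/-5xFAD against 5xFAD, 0 with edgeR became 1 without the low-count filter, 2 with DESeq2 on 16 libraries and 9 with DESeq2 on 8, and 0 to 1 when 1 library was left out. In *Card9*-/- against WT, 0 became 2, 5 and 8 in the same order, and 0 to 1. In 5xFAD against WT, 304 became 565 and 669 with DESeq2 on 16 and 8 libraries, and 164 to 386 with 1 library left out. In *Card9*-/-5xFAD against *Card9*-/-, 286 became 185 without the filter, 812 and 433 with DESeq2, 96 with edgeR on 8 libraries, and 120 to 720 with 1 library left out (720 without *Card9*-/- replicate 4). Leaving out *Card9*-/- replicate 4 and WT replicate 1 together, chosen after the data were seen, gave 1 gene in *Card9*-/- against WT, 695 in 5xFAD against WT and 1899 in *Card9*-/-5xFAD against *Card9*-/-, and turned the *Gnb4* value in *Card9*-/- against WT to 0.08. The cause was not tested.

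Where each gene was tested, *Gnb4* (-0.59 to -0.14 with 1 library left out), *Madcam1* (-1.02 to -0.03) and *Scand1* (-1.33 to -0.28) in *Card9*-/- against WT did not pass under any alternative run (adjusted p from 0.891 to 1, 0.652 to 1 and 0.619 to 1). All 5 genes kept their direction in *Card9*-/-5xFAD against 5xFAD under every alternative in which they passed the low-count filter; *Gnb4* did not pass it in edgeR on those 8 libraries alone.

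Nothing in the labels ties same-numbered libraries of different genotypes together. Deviations of such pairs correlated from -0.71 to 0.73 (median 0.14, 15 of 24 pairs over 0.1). Pairs with other numbers ranged from -0.76 to 0.8 (median 0.02, 33 of 72 over 0.1). Whether the number marks a shared batch was not tested. With the replicate number as a block, 0, 0, 306 and 340 genes were called in the 4 comparisons, and the block values of *Gnb4*, *Madcam1* and *Scand1* in *Card9*-/- against WT were -0.36, -0.70 and -0.81. Within 500000 bases of the 5 genes 6 of 79 neighbours had an unadjusted p under 0.05 in *Card9*-/-5xFAD against 5xFAD, and within 2000000 bases 14 of 255, against 2.52% of all genes. In *Card9*-/- against WT it was 5 of 79 and 12 of 255, against 4.11%. Depth limits *Gnb4* and *Madcam1* most, which rest on under 20 counts in most libraries.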
